A study of Mus musculus with 15 samples.

Results

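The CCl4 response that remained after treatment with hepatocyte vesicles was examined by comparing liver RNA of mice given CCl4 + EVNorm with that of mice given oil. The comparison used 6 of the 15 libraries of the study, 3 in each group, and covered all genes of the deposited table. CCl4 (carbon tetrachloride) becomes toxic once liver enzymes convert it to radicals, and repeated doses scar the liver. All mice were male Swiss Webster mice, 4 to 5 weeks old at the start. Each CCl4 dose was 4 μl, diluted into 26 μl of corn oil for every 25 g of mouse, and the oil mice received 30 μl of corn oil instead. Doses went into the peritoneum 3 times weekly over 5 weeks. EVNorm are extracellular vesicles from the culture medium of AML12, a mouse hepatocyte line from mice with a transforming growth factor alpha transgene. They were injected at 80 μg per 25 g, 3 times weekly and between the CCl4 days, during the last 2 weeks, so that CCl4 dosing went on beside them. Livers were taken 36 h after the final CCl4 or oil dose. Mice given CCl4 alone or oil + EVNorm and untreated littermates, 3 of each, served for reference. The replicates were taken as separate mice from the study's account of its groups.

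Only genes that passed the authors' own test of CCl4 against oil are in the table. By the group means 1711 of them were induced and 1800 suppressed by CCl4. The CCl4 and oil libraries therefore took part in the choice of the genes, which tends to widen the difference between them. Some nearness of CCl4 + EVNorm to oil, compared with CCl4, would follow from that choice alone, and its size was not tested. The CCl4 + EVNorm and untreated libraries were in neither group of that comparison. They shared its normalization and may have entered its estimate of spread, which the study does not state. Values are normalized read counts, and differences are given on the log2(normalized count + 1) scale, which understates the change of low genes. A gene was called at an adjusted p under 0.05 from limma, with Benjamini-Hochberg adjustment over all genes of the table. Called genes that lay on the side of oil to which CCl4 had moved them were termed still induced or still suppressed, and called genes on the other side were termed past oil. Among genes that were not called, those whose 95% interval lay within 2-fold of oil were separated from those with a wider interval, which were left unresolved. A gene was termed back at the oil level only if its CCl4 mean was at least 2-fold from oil and its interval with CCl4 + EVNorm lay within 2-fold.

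Background on the tissue helps to read these families. Hepatocytes around the central vein carry most of the cytochromes P450, the enzymes that convert CCl4 to reactive radicals, and are the first to be damaged. Hepatic stellate cells respond to injury by becoming myofibroblasts that secrete collagen and the enzymes that crosslink and remodel it. Surviving hepatocytes, which rarely divide in healthy adult liver, enter the cell cycle to replace lost cells. Heat shock proteins and other chaperones hold and refold proteins, and their genes are driven by heat shock factor 1 when unfolded protein accumulates.

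Over the genes of the table the recovered reads numbered 6106856 to 11055679 per library, with a median of 7747329, and these totals leave out the reads of genes outside the table. Oil replicates 2 and 3 lay closer together than any other pair of libraries within a group. The chi-square of their reads averaged 2.14 over genes and 15.9% of genes passed 0.05 unadjusted. In other pairs the mean was 29.4 to 160.3 and the share 39.6 to 65.35%. The pair still differed beyond sampling noise and was kept as 2 libraries, with their mean as 1 library as an alternative. Libraries prepared from 1 animal could also differ in this way. Whether the oil group holds 3 independent mice was therefore not settled, and p-values against oil take it to. Of 18 hepatocyte markers 4 were in the table, where Apoa1, the main protein of high-density lipoprotein, was the only defining one. Its counts were 147509, 163842 and 170950.5 with oil and 120382, 125943 and 102408 with CCl4 + EVNorm. The 4 markers summed to 495561 to 514329 with oil and 375725 to 434121 with CCl4 + EVNorm. In whole tissue, fewer cells of a type and less RNA per cell cannot be told apart.

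Most of the response was still present after the vesicles. With CCl4 + EVNorm 1334 genes were higher (38% of those tested) and 1613 lower (45.9%) than with oil, 83.9% in all, and the 3 values of the groups did not overlap for 89% of genes. With the mean of oil replicates 2 and 3 as 1 library, 1233 were higher and 1519 lower. Of the 1711 induced genes 1333 (77.9%) were still induced, 825 of them at least 2-fold and 263 at least 4-fold. Of the 1800 suppressed genes 1609 (89.4%) were still suppressed, 354 at least 2-fold and 88 at least 4-fold. The median difference from oil over the induced genes was 1.02 with CCl4 + EVNorm and 1.20 with CCl4, and over the suppressed genes -0.69 and -0.61. The medians with CCl4 come from libraries that took part in choosing the genes, so they tend to lie too far from oil. Only 33 genes (0.94%) met the rule for being back at the oil level, 26 induced and 7 suppressed. Among the 1034 genes induced at least 2-fold by CCl4, 804 were still induced and 201 were unresolved, so a return within 2-fold could be neither shown nor denied for many. The median gene lay 0.23 below oil on the log2 scale. A TMM scaling moved it to 0.00 and turned the balance of calls, with 1502 genes higher and 1211 lower (55.4% of calls higher in place of 45.3%). TMM assumes that most genes do not change, and here it was computed over the table alone, whose genes were chosen for a CCl4 response. It thus tends to centre these genes on 0, and calls lost or gained under TMM depend on that centring.

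**Figure D1:**
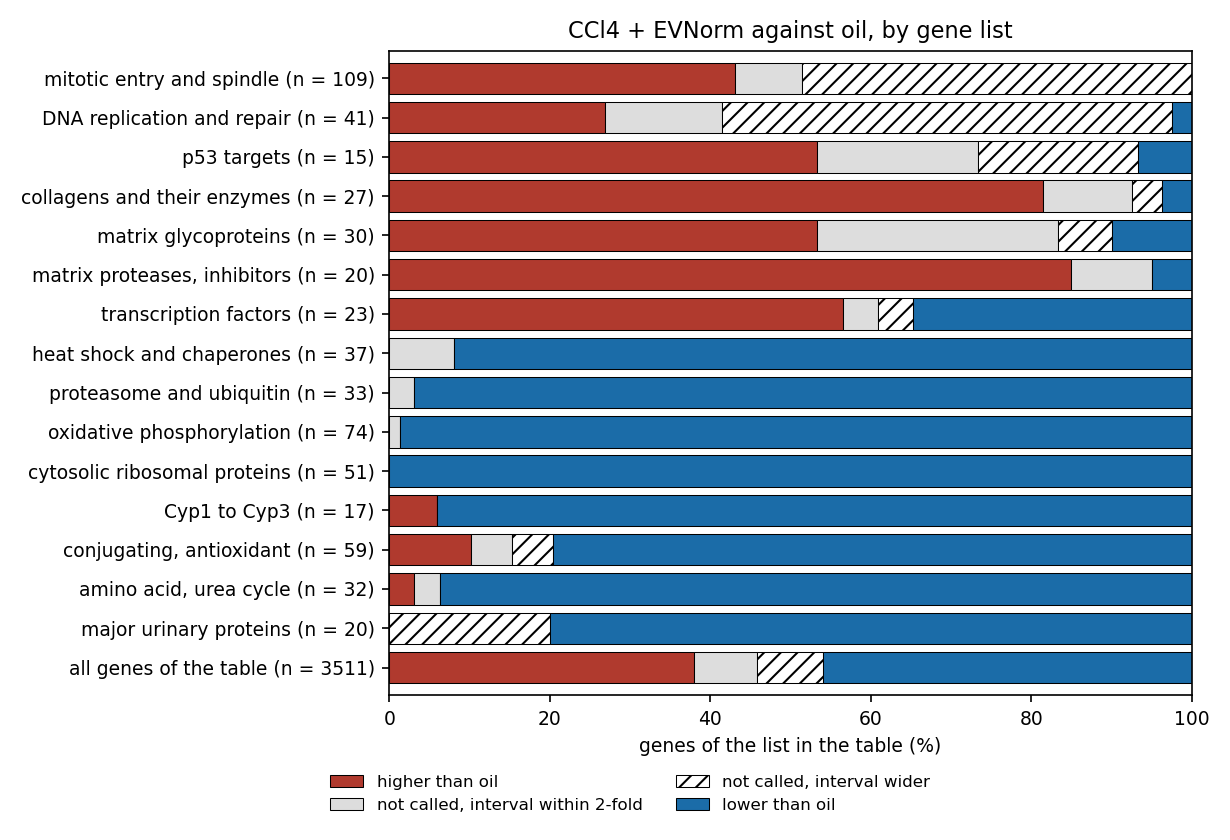
Share of the genes of each list in the table (%, horizontal axis) that were higher than oil, lower than oil, or not called with CCl4 + EVNorm, with limma over all genes of the table. Cell division lists had the largest shares of uncalled genes (62 of 109 and 29 of 41), while 73 of 74 oxidative phosphorylation genes and 34 of 37 heat shock and chaperone genes were lower.

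Heat shock proteins and chaperones were still suppressed as a family. Of 81 listed genes 37 were in the table, and with CCl4 + EVNorm 34 were lower than oil, none was higher and 3 were within 2-fold (Serpinh1, Dnaja3 and Hspa12a). Their median difference from oil was -0.81 with CCl4 + EVNorm and -0.60 with CCl4 alone. CCl4 had suppressed 35 of the 37, and the medians over all suppressed genes of the table were close, at -0.69 and -0.61. Of all suppressed genes 89.4% were still suppressed, and the median over all genes of the table was -0.23. Under a TMM scaling 27 of the heat shock list were lower and 1 was higher. The lowest was Hspa1b (chromosome 17, 34956436 to 34959238 of GRCm38), which encodes an inducible Hsp70 that is nearly absent from unstressed cells in many tissues. Its near-identical neighbour Hspa1a can share reads with it, so the value is uncertain as that of a single gene. Its normalized counts were 1893, 1718 and 1817 with oil and 457, 357 and 507 with CCl4. They were 189, 166 and 179 with CCl4 + EVNorm. The groups formed 3 separate steps, and every CCl4 + EVNorm mouse lay below every CCl4 mouse. The difference from oil was -3.34 (standard error 0.32, limma adjusted p = 9.2e-06), and from CCl4 -1.29 (adjusted p = 0.028). The call against CCl4 was lost without a mean-variance trend (adjusted p = 0.0615), with library medians centred (-1.18) and without any of 5 of the 6 libraries compared, with values of -1.33 to -1.18.

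The promoter of Hspa1b is shown as an example with a match to the element that heat shock factor 1 binds. It is the RefSeq sequence of GRCm38.p6 at chr17:34959189-34959488 on the minus strand, from 250 bases before to 50 bases after the start, with a match to GAANNTTC, the core of the heat shock element, in capitals.
Hspa1b: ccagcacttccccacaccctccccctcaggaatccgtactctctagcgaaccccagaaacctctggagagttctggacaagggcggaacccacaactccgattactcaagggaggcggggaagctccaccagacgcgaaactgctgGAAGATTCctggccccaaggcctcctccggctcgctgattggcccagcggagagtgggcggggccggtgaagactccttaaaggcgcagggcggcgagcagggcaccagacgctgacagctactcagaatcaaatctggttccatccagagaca
Searched on both strands, which read alike for this palindrome, GAANNTTC was in 9 of the 32 heat shock list members with a promoter sequence (28.1%) and in 7.95% of all 27025 promoters of that length. Its other phase TTCNNGAA was in 15.6% and 8.4%. Either phase was in 11 of the 32 members (34.4%), so most held neither in this window, and the promoter of Dnajb1 was without a match. Among genes of the table with a promoter sequence the share was 12.4%, and among all promoters 15.1%. A match of these letters describes the sequence and is no evidence of binding.

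Other chaperones took the same steps. Hspa8 (chromosome 9, 40800984 to 40810087), the Hsp70 that cells make at all times, had counts of 22248, 22273 and 22342 with oil, 11412, 10570.2 and 11702 with CCl4 and 6055, 3789.9 and 4625 with CCl4 + EVNorm. Its groups did not overlap, and the difference of CCl4 + EVNorm from oil was -2.23 (0.15, adjusted p = 4.1e-07) and from CCl4 -1.24 (adjusted p = 0.00067). Dnajb1, the Hsp40 that feeds substrates to Hsp70, differed from oil by -2.07, and Hsph1, the nucleotide exchange factor Hsp110, by -2.07. Both were also lower than with CCl4, by limma adjusted p = 0.012 and 0.028. Stip1, which bridges Hsp70 and Hsp90, and Chordc1, an Hsp90 partner, were likewise below both groups, at -1.20 and -1.26 from oil, and Chordc1 missed the call against CCl4 with the replicate block (adjusted p = 0.0579). Hsp90aa1, the inducible Hsp90, was -1.36 from oil (adjusted p = 0.00016), and its difference from CCl4 of -0.59 was not called (adjusted p = 0.13). In all, 7 list members were lower than with CCl4 and none was higher, where 5.16% of all genes were lower and 5.67% were called in either direction. Of these calls that of Hspa8 held under every alternative. Those of Hspa1b, Dnajb1, Hsph1, Stip1 and Chordc1 were lost with library medians centred, those of Hspa1b, Hsph1 and Chordc1 also without a mean-variance trend, and that of Hsph1 also under TMM (-0.90) and with only the groups compared. Each of them, and that of Serpinh1, was also lost without 1 or more single libraries.

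Chaperonins lay nearer to oil than Hspa1b and Hspa8. All 6 genes of the CCT chaperonin, the ring that folds actin and tubulin, were lower than oil, from -0.82 (Tcp1) to -0.64 (Cct7). The mitochondrial chaperonin gene Hspd1 was -0.42 from oil (adjusted p = 0.005), a call lost under TMM (-0.19), and its co-chaperonin Hspe1 -1.03 (adjusted p = 8.2e-05). Of 6 endoplasmic reticulum chaperone and unfolded protein genes 5 were lower and 1 was higher. The latter was Calr, the calcium-binding chaperone calreticulin, with 5519, 5619 and 5821 counts with oil and 8336, 8807 and 9213 with CCl4 + EVNorm, groups that did not overlap. In oil + EVNorm mice the per-mouse median of the heat shock list also lay below the oil mean, at -0.19, -0.27 and -0.46, while in CCl4 + EVNorm mice it was -0.77, -0.75 and -0.91. Hspb1, a small heat shock protein gene, is an exception among reference levels: it was -1.57 from oil but 0.27 from untreated (adjusted p = 0.52). Its mean was 102 in untreated and 308 in oil mice.

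**Figure D2:**
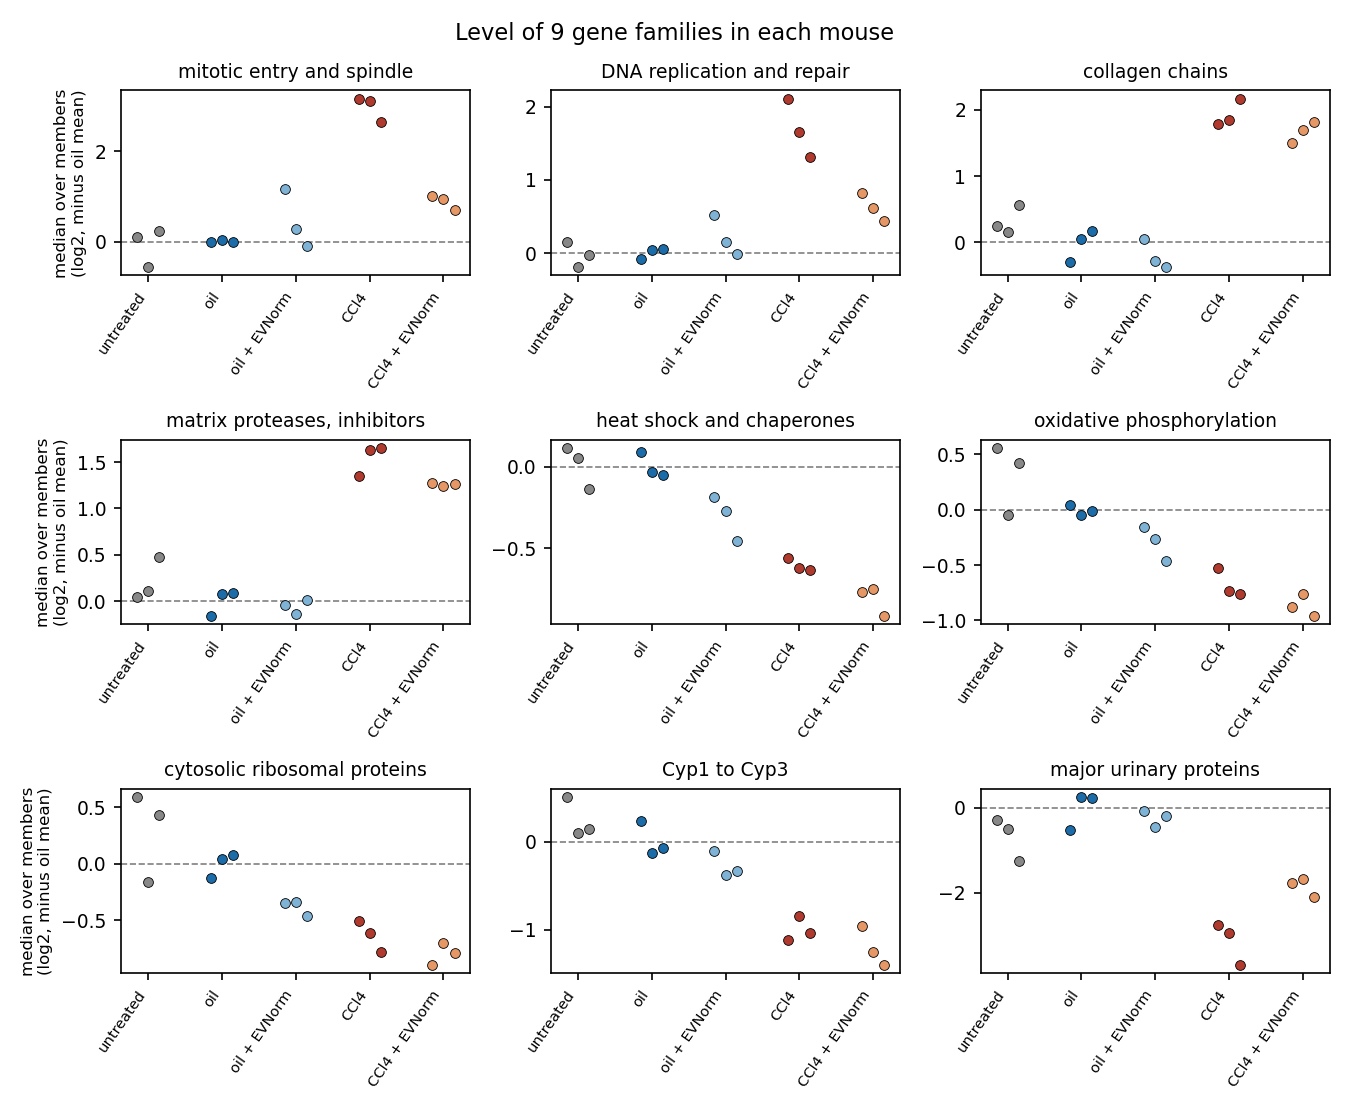
Median over the members of 9 families in each mouse, as log2(normalized count + 1) minus the oil mean (vertical axis), with points for the 3 mice of each of the 5 groups. The 3 CCl4 + EVNorm mice sat at 1.01, 0.94 and 0.70 for mitosis genes against 3.16, 3.12 and 2.65 with CCl4, and at -0.77, -0.75 and -0.91 for heat shock genes, below all 3 CCl4 mice.

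Protein degradation and energy metabolism were suppressed with little spread among members, and 89.4% of all suppressed genes of the table were still suppressed. CCl4 had suppressed all the proteasome and ubiquitin genes in the table. Of 33 proteasome and ubiquitin genes in the table, 32 were lower than oil and 1, Psmb9 of the immunoproteasome, was within 2-fold (-0.86 to -0.01, 95% interval) and was called lower with only the groups compared. Psmb3, a subunit of the catalytic core, had counts of 2228, 1996 and 1962 with oil and 926, 1082 and 918 with CCl4 + EVNorm, and these did not overlap. Its difference of -1.08 (0.11, adjusted p = 1.5e-05) was the lowest of the list, and Psme4, a proteasome activator, was nearer to oil at -0.29 (adjusted p = 0.0099) and was not called under TMM (-0.06, adjusted p = 0.555).

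Oxidative phosphorylation, by which mitochondria make ATP, had 74 of 94 listed genes in the table, and CCl4 had suppressed 73 of them. With CCl4 + EVNorm 73 of the 74 were lower than oil, where 89.4% of all suppressed genes of the table were still suppressed. The exception was Idh2, mitochondrial isocitrate dehydrogenase, at -0.08. Grouped by symbol after the values were seen, all 32 complex I subunits, all 7 complex III subunits, all 10 cytochrome c oxidase subunits and all 16 ATP synthase genes were lower. Their medians were close together, at -0.90, -0.88, -0.85 and -0.90. Cox7b of cytochrome c oxidase (chromosome X, 106015700 to 106022450) was lowest, with counts of 5613, 5768 and 6193 with oil, 3472, 2615 and 2510.5 with CCl4 and 2450.0, 2619 and 1993 with CCl4 + EVNorm. Oil stood apart from both injured groups, which overlapped, and the difference from oil was -1.32 (0.18, adjusted p = 8.5e-05). No oxidative phosphorylation gene was higher than oil under any scaling, and 70 were still lower under TMM.

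Genes of the translation machinery moved in the same direction. CCl4 had suppressed all the ribosomal protein genes below, and 89.4% of all suppressed genes of the table were still suppressed. All 51 cytosolic ribosomal protein genes of the table were lower than oil, from -1.08 (Rpl35a) to -0.60 (Rpsa), with a median of -0.80 beside -0.63 with CCl4. Against untreated liver the median was -1.08, and again all 51 were lower. Under TMM 50 stayed lower. Of 38 mitochondrial ribosomal protein genes 36 were lower and 2 were within 2-fold of oil. Ribosomal protein genes have many processed pseudogenes that can take up their reads. Per mouse, oil + EVNorm lay between oil and the injured groups for oxidative phosphorylation, at -0.16, -0.26 and -0.46, against -0.87, -0.76 and -0.96 with CCl4 + EVNorm.

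The drug-metabolizing cytochromes were all still apart from oil or past it. CCl4 had suppressed 14 of the 17 in the table, and 89.4% of all suppressed genes were still suppressed. Of 17 Cyp1 to Cyp3 genes in the table, 16 were lower than oil and 1, Cyp3a44, was higher, with a median of -1.31 beside -0.99 with CCl4. Cyp3a44, at 2.36 (adjusted p = 0.017), lost its call without oil replicate 2 (1.55), without CCl4 + EVNorm replicate 2 or 3, and with the mean of oil replicates 2 and 3 (1.91). Cyp2a5 (chromosome 7, 26835305 to 26843548), which hydroxylates coumarin and nicotine, had 2243, 1531 and 1668 counts with oil and 295, 209 and 183 with CCl4. With CCl4 + EVNorm the counts were 64.2, 40.0 and 47.4. Each group lay below the one before it without overlap, and the difference of CCl4 + EVNorm was -5.15 from oil (0.40, adjusted p = 8.9e-07) and -2.16 from CCl4 (adjusted p = 0.0045). Untreated mice had a mean of 257, below oil, so that the difference from untreated was smaller, at -2.30 (adjusted p = 0.00017).

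Cyp2c genes, near-identical neighbours on chromosome 19 that can share reads, ranged widely. Cyp2c38 had counts of 1009, 199 and 219.7 with oil, 1 mouse far above the other 2, and 17.3, 28.2 and 21.2 with CCl4 + EVNorm. All 3 of the latter lay below all oil values, and the difference was -3.96 (adjusted p = 7.5e-05). It was also below CCl4, with 79.2, 157 and 60.4 counts there (adjusted p = 0.03), a call that was lost without a mean-variance trend (-2.01), under TMM (-2.10) and without any of 5 of the 6 libraries compared. The abundant Cyp2c29 fell to 14872, 11251 and 5333 with CCl4 + EVNorm from 69445, 53877 and 54052 with oil, a difference of -2.61 (adjusted p = 3.3e-05). Cyp2e1, the main enzyme that activates CCl4, was -0.90 from oil (adjusted p = 0.0016) and 0.03 from CCl4 (adjusted p = 0.97), with counts of 41425, 52208 and 41794 with CCl4 and 43932, 47275 and 45958 with CCl4 + EVNorm.

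Enzymes that conjugate or detoxify were lower in most cases. CCl4 had suppressed 48 of the 59 genes in the table, and 46 were still suppressed, beside 89.4% of all suppressed genes. Of 59 conjugating and antioxidant genes 47 were lower than oil, 6 were higher and 6 were not called, with a median of -0.92 beside -0.67 with CCl4. The 6 higher became 2 without oil replicate 2 and with the mean of oil replicates 2 and 3, and 3 without CCl4 + EVNorm replicate 2 or 3. By symbol, all 4 sulfotransferases, all 4 carboxylesterases and 8 of 9 glutathione transferases were lower. Gstt3 had counts of 573, 466 and 481 with oil and 112, 109 and 164 with CCl4 + EVNorm, groups far apart, for a difference of -1.99 (adjusted p = 9.7e-05). Gstm3, a glutathione transferase induced through Nrf2, was the exception, at 0.88 (adjusted p = 0.04). Its oil values of 401, 117 and 145 overlapped those with CCl4 + EVNorm of 355, 307 and 398, and the call was lost without a mean-variance trend or with a robust one, with only the groups compared, with edgeR at the file's scaling (0.67), with DESeq2 (0.67), with the mean of oil replicates 2 and 3 (0.61), and without any of the 6 libraries compared other than oil replicate 1.

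Genes of the pericentral zone, where CCl4 is activated, were mostly lower. CCl4 had suppressed 25 of the 31 in the table, and 24 were still suppressed, beside 89.4% of all suppressed genes. Of 31 in the table, 24 were lower than oil and 5 were higher, with a median of -1.07 beside -1.44 against untreated. Oat (chromosome 7, 132557478 to 132576398), which degrades ornithine in the cells next to the central vein, had 6228, 5044 and 5158 counts with oil, 289.9, 515 and 538 with CCl4 and 462, 268 and 796 with CCl4 + EVNorm. Both injured groups lay below oil and overlapped each other, and the difference from oil was -3.56 (0.35, adjusted p = 9.2e-06). Glul, glutamine synthetase of the same cells, was -1.29 from oil (adjusted p = 0.00014). Slc1a2, a glutamate transporter, was -2.24 from oil with counts of 1814, 1872 and 1994 with oil, 111, 183 and 92.6 with CCl4 and 329.9, 305 and 632 with CCl4 + EVNorm. The CCl4 + EVNorm values lay between the other groups without touching them, and the difference from CCl4 was 1.69 (adjusted p = 0.0013).

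The 5 pericentral genes above oil were Axin2, Tbx3, Ccnd1, Gstm3 and the amino acid transporter gene Slc1a4, and without CCl4 + EVNorm replicate 1 there were 3. Axin2 (chromosome 11, 108920349 to 108950783), a feedback inhibitor of Wnt signalling, had 38.0, 42.4 and 74.8 counts with oil and 203, 291 and 297 with CCl4. With CCl4 + EVNorm it had 264, 278 and 279. It was apart from oil in every injured mouse, by 2.44 (0.29, adjusted p = 4.6e-05), and 0.07 from CCl4 (adjusted p = 0.94). Tbx3, a transcription factor that Wnt signalling induces in liver, was 2.08 from oil (adjusted p = 0.00045) but 0.69 from untreated (adjusted p = 0.11), whose mean of 477 exceeded the oil mean of 164. Ccnd1, cyclin D1, was 0.88 from oil (adjusted p = 0.017), a call that was lost without oil replicate 1 (0.79) or CCl4 + EVNorm replicate 1 (0.53). Of 14 periportal genes 11 were lower and 1, the bile duct transcription factor gene Sox9, was higher (2 under TMM and with only the groups compared).

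**Figure D3:**
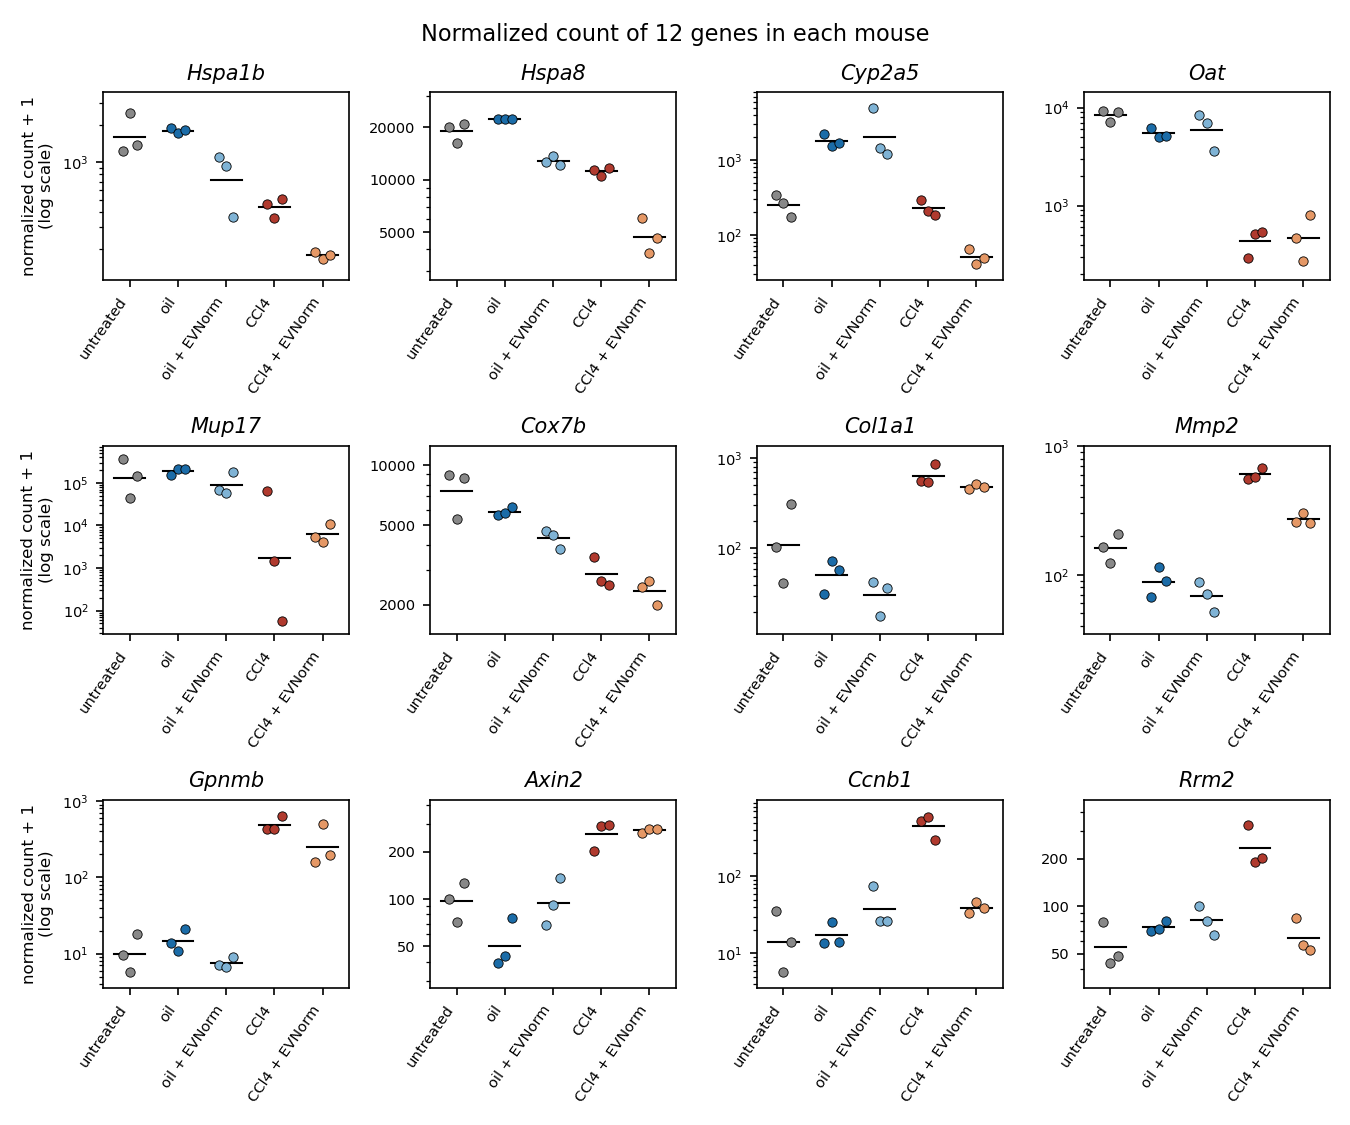
Normalized count (log axis) of 12 genes in each mouse of the 5 groups, with a line at the mean on the log scale. Hspa1b, Hspa8 and Cyp2a5 stepped down from oil to CCl4 to CCl4 + EVNorm, Oat, Cox7b, Axin2 and Col1a1 stood near their CCl4 level, and Ccnb1 and Rrm2 lay nearer to oil than to CCl4.

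Major urinary proteins, the pheromone carriers that male mouse liver makes under growth hormone control, were the list with the lowest median. All 20 genes and pseudogenes in the table were suppressed by CCl4. With CCl4 + EVNorm 16 were still lower (80%, beside 89.4% of all suppressed genes) and 4 were unresolved. The median difference from oil was -1.91 with CCl4 + EVNorm and -3.53 with CCl4. These genes lie in 1 cluster on chromosome 4 and are so alike that reads cannot be assigned to a member with certainty. Mup9 had 13268, 22356 and 22444 counts with oil and 39.5, 32.1 and 38.4 with CCl4 + EVNorm. With a difference of -8.97 (1.26, adjusted p = 0.0001) it was the lowest gene of the table. Untreated mice ranged widely, with 11878, 90.4 and 4064 counts, and CCl4 mice had 249, 64.5 and 13.6.

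Other members were nearer to oil than with CCl4. Mup18 had 3013, 13888 and 14787 counts with oil, 767, 362 and 395 with CCl4 and 1723, 2183 and 2026 with CCl4 + EVNorm. CCl4 + EVNorm values sat between the groups, -2.11 from oil (adjusted p = 0.0016) and 2.04 from CCl4 (adjusted p = 0.023), the latter a call lost without a mean-variance trend (adjusted p = 0.0549) or with a robust one (adjusted p = 0.0653) and without any of 4 of the 6 libraries. In all 4 members were higher than with CCl4. Mup17 varied among mice, with 64039.7, 1483 and 55.5 counts with CCl4 and 5483, 4002 and 10946 with CCl4 + EVNorm beside 154191, 214898 and 217778 with oil. The per-mouse median of the family was -0.52, 0.26 and 0.22 around the oil mean in oil mice, -1.77, -1.68 and -2.10 with CCl4 + EVNorm and -2.77, -2.96 and -3.70 with CCl4, without overlap. The count of members still lower ranged from 11 to 18 over the alternatives, with 11 without oil replicate 2 or 3 and with their mean as 1 library. Of 30 male-biased genes 21 were lower and 1, the retinol dehydrogenase gene Dhrs9, was higher, with a median of -1.15 beside -1.66 with CCl4. The female-biased list had 5 of 14 higher and 3 lower. The 5 became 3 with a pseudocount of 5 and with edgeR at the file's scaling, 2 without oil replicate 2 or 3 or CCl4 + EVNorm replicate 1 and with the mean of oil replicates 2 and 3, and 1 without CCl4 + EVNorm replicate 2.

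Metabolic genes of hepatocytes that CCl4 had suppressed mostly stayed so, as did 89.4% of all suppressed genes of the table. Of 32 amino acid and urea cycle genes 30 were lower than oil, among them the urea cycle genes Otc (-0.63) and Arg1 (-0.60). Asns, asparagine synthetase, was the 1 that was higher (2.44, adjusted p = 0.0012), with 17.9, 45.6 and 60.6 counts with oil and 143, 189 and 317 with CCl4 + EVNorm. Psat1, of serine synthesis, was back at the oil level at 0.28 (-0.42 to 0.99). Of 31 fatty acid and lipoprotein genes 23 were lower and 7 higher. The 7 became 4 without oil replicate 2 or CCl4 + EVNorm replicate 1 and with the mean of oil replicates 2 and 3, and 3 without oil replicate 3 or CCl4 + EVNorm replicate 2. Fabp1, the fatty acid carrier of hepatocytes, was -1.51 from oil (adjusted p = 0.00057), while Lpl, lipoprotein lipase, was 1.36 (adjusted p = 0.015). Without oil replicate 1, whose Lpl count of 322 was far below the other oil mice, the value was 0.68 and was not called.

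Sugar and plasma protein genes were also mostly lower. Of 19 genes of glycolysis, gluconeogenesis and glycogen 14 were lower and 4 higher (2 without oil replicate 3 or CCl4 + EVNorm replicate 2). Pdk4, which brakes pyruvate oxidation, was at 1.28 (adjusted p = 0.023), a call lost without oil replicate 2 or 3 or CCl4 + EVNorm replicate 1 or 2 and with the mean of oil replicates 2 and 3, with values of 1.07 to 1.13. Plasma protein genes were lower in 18 of 23 cases. The 2 that were higher (4 under TMM) were the complement genes C4b, at 1.33 (adjusted p = 0.0022), and C3. C3 had 90521, 116659.5 and 121015 counts with oil and 158613, 255861 and 332623 with CCl4 + EVNorm, all of the latter above oil, for 1.13 (adjusted p = 0.0026). Of 15 bile acid and cholesterol genes 9 were lower and 2 higher. These became 5 lower under TMM and without oil replicate 1 or CCl4 + EVNorm replicate 3, and 1 higher without a mean-variance trend, with edgeR at the file's scaling, with the mean of oil replicates 2 and 3 and without any of 5 of the 6 libraries. Cyp7b1, which makes bile acids by the alternative route, was back at the oil level with a difference of -0.32 (-0.86 to 0.22) after counts of 12429, 17472 and 16857 beside 13434, 23051 and 22872 with oil.

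Collagen genes were mostly still induced, as were 77.9% of all induced genes of the table. Of 27 collagens and collagen-processing genes 22 were higher than oil, 1 was lower and 4 were not called, and none met the rule for being back at the oil level. The number lower was 3 with only the groups compared, and 2 with the replicate block, edgeR at the file's scaling, DESeq2 or the mean of oil replicates 2 and 3 and without oil replicate 2 or CCl4 + EVNorm replicate 1. Among the 20 collagen chains 18 were higher, with a median of 1.73 beside 1.98 with CCl4 and 1.19 against untreated. Col1a1 (chromosome 11, 94936224 to 94953042), a chain of type I collagen, the bulk of scar, had 30.6, 71.7 and 57.0 counts with oil and 554, 535 and 855 with CCl4. With CCl4 + EVNorm it had 456, 515 and 475. Every CCl4 + EVNorm mouse was above every oil mouse and below every CCl4 mouse, and the difference was 3.24 from oil (0.53, adjusted p = 0.00024) and -0.39 from CCl4, which was not called (adjusted p = 0.79). Its partner chain Col1a2 was 2.55 from oil (adjusted p = 0.00011).

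Collagens differed in how near they came to oil. Col3a1, type III collagen of early scar, had 959, 1744 and 1634 counts with oil, 8912, 6794 and 10411 with CCl4 and 4322, 4623 and 4326 with CCl4 + EVNorm. It was still 1.66 from oil (adjusted p = 0.00014) and lay -0.96 from CCl4, which was called (adjusted p = 0.033). This call was lost with the replicate block (adjusted p = 0.0511), without a mean-variance trend (adjusted p = 0.0714), with library medians centred (-0.85) and without any of 5 of the 6 libraries. Basement membrane chains Col4a1 and Col4a2 were 1.06 and 1.08 from oil, and the type VI chains Col6a1 and Col6a2 2.09 and 1.87, all called. Col14a1, a fibril-associated collagen, lay below the oil level, with 2008, 1946 and 1568 counts beside 2350.3, 2134 and 2093 with oil and 3512, 3243 and 3606 with CCl4. Its difference from oil was -0.26 (-0.53 to 0.02, adjusted p = 0.073), called only with the groups compared alone, and from CCl4 -0.91 (adjusted p = 0.00082). Serpinh1, the collagen chaperone Hsp47, had an interval within 2-fold of oil (-0.18, -0.56 to 0.19) and was lower than with CCl4 (adjusted p = 0.011), other than without replicate 3 of either group.

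Enzymes that act on collagen were largely still induced, and 1 was suppressed. The crosslinking lysyl oxidase genes Lox and Loxl4 were 1.11 and 3.83 from oil (adjusted p = 0.0088 and 0.0003), and Lox lost its call without oil replicate 1 (0.77). P4ha1, the prolyl hydroxylase that stabilizes the collagen helix, had 1103, 827 and 882 counts with oil and 269.8, 236 and 320.3 with CCl4 + EVNorm, all below oil, for -1.76 (adjusted p = 0.00014). Of 20 matrix proteases and inhibitors 17 were higher, 1 was lower (2 with only the groups compared) and 2 were within 2-fold. CCl4 had induced 18 of the 20, and 17 were still induced, beside 77.9% of all induced genes. Mmp2 (chromosome 8, 92827291 to 92853420), a gelatinase, had 66.5, 113 and 89.1 counts with oil, 559, 576 and 677 with CCl4 and 257, 301 and 253 with CCl4 + EVNorm. The last group sat between the others without overlap, 1.61 from oil (0.24, adjusted p = 0.00014) and -1.16 from CCl4 (adjusted p = 0.0096). Leaving out oil replicate 3 gave the lowest count of higher proteases, 13.

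Matrix glycoproteins divided between persistence and return. Of 30 in the table, 16 were higher than oil, 3 lower, 9 within 2-fold and 2 unresolved. Ltbp2, a microfibril protein, had 4.2, 14.1 and 13.1 counts with oil and 195, 306 and 229 with CCl4 + EVNorm, far above oil at 4.54 (0.56, adjusted p = 5.6e-05). Eln, elastin, and Fbn1, fibrillin 1, of the same elastic fibres, were 2.44 and 1.25 from oil (adjusted p = 9.9e-05 and 7.7e-05). The small proteoglycan Lum, by contrast, was back at the oil level. It had 290.4, 372 and 347 counts with oil, 858, 1014 and 706 with CCl4 and 390.0, 488 and 392 with CCl4 + EVNorm, a difference of 0.33 (-0.05 to 0.71) from oil and -1.01 from CCl4 (adjusted p = 0.0033). All its CCl4 + EVNorm values lay just above the oil values, and it was called higher than oil under TMM and with only the groups compared.

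Postn, periostin, was likewise back, at 0.32 from oil (-0.12 to 0.76) and -1.10 from CCl4 (adjusted p = 0.0045), with 195, 255 and 181 counts beside 139, 189 and 175 with oil. It too was called higher under TMM. Ltbp1, which stores transforming growth factor beta in the matrix, was within 2-fold of oil, 0.06 (-0.40 to 0.52), and Reln, reelin of quiescent stellate cells, was 0.22 (-0.06 to 0.51), and both were lower than with CCl4 (adjusted p = 0.041 and 0.0035). For Ltbp1 this call was lost with the replicate block (adjusted p = 0.0557), with library medians centred (-0.69) and without any of the 6 libraries. Reln was called higher than oil under TMM (0.46) and without CCl4 + EVNorm replicate 3 (0.35). Ccn2, connective tissue growth factor, was below oil in both injured groups, with 162, 361 and 392 counts with oil, 84.1, 105 and 218 with CCl4 and 65.0, 74.5 and 118 with CCl4 + EVNorm. Its difference from oil was -1.76 (adjusted p = 0.0013).

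Markers of stellate cells and myofibroblasts were in part still above oil. Of 30 such markers 15 were in the table, 9 higher than oil and 1 lower with CCl4 + EVNorm, none was a defining marker, and the list shares Col1a1, Col1a2, Col3a1, Lum and Postn with the matrix lists. Their summed count was 7649.5 to 9597.5 with oil, 21242 to 26187 with CCl4 and 13134 to 15117 with CCl4 + EVNorm. Pdgfrb, the receptor for platelet-derived growth factor on these cells, had 228, 298 and 317 counts with oil, 706, 818 and 814 with CCl4 and 697, 753 and 692 with CCl4 + EVNorm, 1.36 from oil (adjusted p = 3.8e-05). Other markers of the list were near oil. Tcf21 was back at the oil level (0.22, -0.49 to 0.94), as were Lum and Postn, and Reln was within 2-fold. Vim lost its call against oil without oil replicate 1 (0.27). The part of cell number in the matrix values was not tested.

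Of 34 macrophage markers 5 were in the table, none of them defining, and 2 were higher than oil. Their summed count was 3584.5 to 4293 with oil, 7218 to 9095 with CCl4 and 3769.6 to 4769.7 with CCl4 + EVNorm. Gpnmb, a glycoprotein of lipid-laden macrophages, had 12.7, 9.8 and 20.2 counts with oil and 158, 492 and 198 with CCl4 + EVNorm, all above oil, and Trem2, a lipid receptor of scar-associated macrophages, 11.6, 32.6 and 22.6 and 49.4, 101 and 68.6. Their differences from oil were 4.09 and 1.72 (adjusted p = 2.3e-05 and 0.0015). Lyz2, lysozyme of all myeloid cells, was instead back at the oil level, with 1374, 1542 and 1536 counts with oil, 3303, 3845 and 3932 with CCl4 and 1276, 1931 and 1579 with CCl4 + EVNorm, 0.09 from oil (-0.41 to 0.58) and -1.23 from CCl4 (adjusted p = 0.0048). Among chemokine and cytokine genes 6 of 19 were higher and 8 lower than oil. Ccl2 and Il1b, signals of inflammation, were both lower than oil (adjusted p = 0.0066 and 0.0076), and Cish and Socs2, feedback inhibitors of growth hormone signalling, -3.10 and -2.48 (adjusted p = 0.0014 and 0.0047). For Cish the oil mean of 779.8 itself exceeded the untreated mean of 68.1, and the difference from untreated was 0.88 (adjusted p = 0.26).

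**Figure D4:**
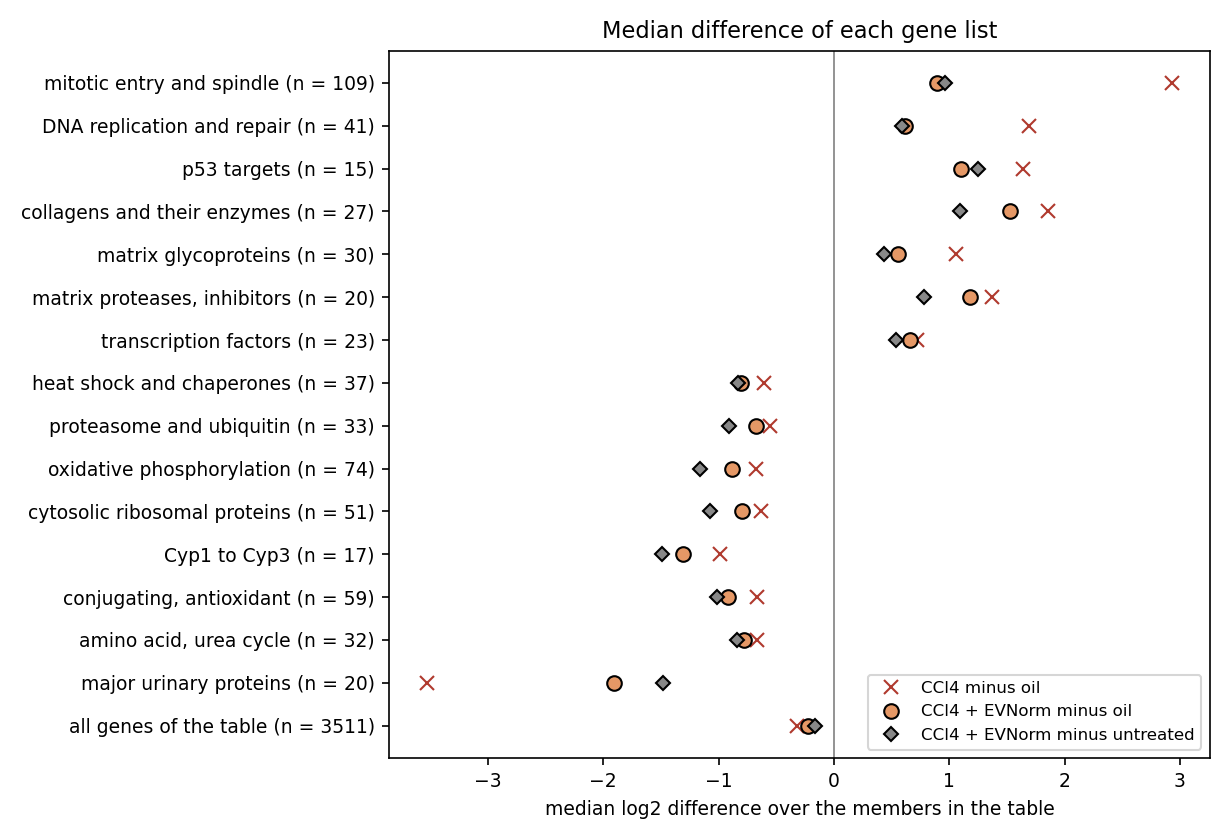
Median over each list of the log2 difference of CCl4 from oil, CCl4 + EVNorm from oil and CCl4 + EVNorm from untreated (horizontal axis). The mitosis list moved from 2.94 to 0.89, the collagens from 1.86 to 1.53, and the heat shock list from -0.60 to -0.81.

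Cell division genes moved from far above oil with CCl4 to near it with CCl4 + EVNorm. Of 136 listed genes of mitotic entry and the spindle 109 were in the table, all induced by CCl4, and 47 were still higher than oil, 9 were within 2-fold and 53 were unresolved. The median difference from oil was 0.89 with CCl4 + EVNorm and 2.94 with CCl4, and 79 members were lower than with CCl4, 44 of which were not called against oil. The count of 47 fell to 31 without CCl4 + EVNorm replicate 1 and ranged up to 63 under TMM. At 0.93 the median distance from an estimate to either bound of its 95% interval was close to the 2-fold margin of 1, beside 0.45 over all genes, and an excess within that width was not detectable with 3 mice per group. In oil + EVNorm mice the per-mouse median of this list was 1.17, 0.28 and -0.09.

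Promoters of 3 of these genes are shown because mitosis genes share 2 elements, the cell cycle homology region TTTGAA and the CCAAT box. They are RefSeq sequences of GRCm38.p6 over the same window as above, all on the minus strand, with matches to either element on either strand in capitals (ATTGG is CCAAT on the other strand). Ccnb1 is at chr13:100786437-100786736, Cdk1 at chr10:69352863-69353162 and Kif23 at chr9:61946750-61947049.
Ccnb1: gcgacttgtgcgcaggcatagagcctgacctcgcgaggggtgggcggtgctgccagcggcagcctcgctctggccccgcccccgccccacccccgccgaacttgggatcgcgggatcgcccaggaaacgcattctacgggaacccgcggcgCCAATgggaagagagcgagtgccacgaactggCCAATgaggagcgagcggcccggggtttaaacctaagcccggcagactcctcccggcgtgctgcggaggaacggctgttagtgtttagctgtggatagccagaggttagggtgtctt
Cdk1: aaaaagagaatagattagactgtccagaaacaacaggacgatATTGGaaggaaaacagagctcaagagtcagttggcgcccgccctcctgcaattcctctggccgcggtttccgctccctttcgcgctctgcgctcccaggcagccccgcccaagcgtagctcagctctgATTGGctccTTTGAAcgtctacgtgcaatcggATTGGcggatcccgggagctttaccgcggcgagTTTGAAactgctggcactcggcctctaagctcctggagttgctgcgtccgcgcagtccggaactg
Kif23: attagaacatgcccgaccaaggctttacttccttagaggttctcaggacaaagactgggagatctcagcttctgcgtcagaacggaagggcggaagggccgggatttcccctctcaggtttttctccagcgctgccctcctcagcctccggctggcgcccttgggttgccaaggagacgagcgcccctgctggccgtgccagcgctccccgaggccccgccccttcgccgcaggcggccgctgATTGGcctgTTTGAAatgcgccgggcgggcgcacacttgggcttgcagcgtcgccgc
TTTGAA was in 55 of the 90 mitosis list members with a promoter sequence (61.1%) and in 18.1% of all 27025 promoters, and CCAAT in 61 (67.8%) and in 37.9%. TTTGAA was in 27 of 41 members still above oil (65.9%) and in 28 of 49 not called (57.1%). CCAAT was in 78% and 59.2%. Ccnb1, with 2 CCAAT boxes and no TTTGAA in this window, Cdk1, with 3 and 2, and Kif23, with 1 of each, represent an unresolved gene near the threshold, an unresolved gene nearer to oil and a gene back at oil.

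Ccnb1 (chromosome 13, 100778650 to 100786570), cyclin B1, which switches on mitosis with Cdk1, had 12.7, 25 and 13.1 counts with oil and 525, 600.3 and 293 with CCl4. With CCl4 + EVNorm it had 32.9, 45.5 and 37.6. These 3 values were all above oil but far below CCl4, and the difference from oil of 1.20 (95% interval 0.02 to 2.38) had an adjusted p of 0.055 from limma, just short of the threshold. It passed with only the groups compared, with library medians centred, under TMM, with DESeq2 and without oil replicate 2. Ccnb2, cyclin B2, was called, at 1.52 (adjusted p = 0.011), with 17.9, 6.5 and 20.2 counts with oil and 42.8, 42.3 and 36.0 with CCl4 + EVNorm, and lost the call without oil replicate 2 (1.04). Cdk1 itself had 53.8, 51.1 and 43.9 counts with oil, 450, 422 and 225 with CCl4 and 56.8, 67.4 and 72.7 with CCl4 + EVNorm, 0.39 from oil (-0.35 to 1.14) and -2.40 from CCl4 (adjusted p = 0.00094).

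Spindle and proliferation genes showed the whole range. Kif23, a motor of the cytokinetic midzone, had 38.0, 52.2 and 38.0 counts with oil, 117, 157 and 106 with CCl4 and 32.1, 44.7 and 40.0 with CCl4 + EVNorm. Oil and CCl4 + EVNorm values interleaved, and the difference was -0.13 (-0.96 to 0.70). Mad2l1 of the spindle checkpoint was 0.12 from oil (-0.35 to 0.59) and Plk4, which licenses centriole duplication, -0.03 (-0.73 to 0.67). Still induced, in contrast, were Plk1, the mitotic kinase, at 2.45 (adjusted p = 0.0051) and Espl1, separase, at 2.46 (adjusted p = 0.0012), both from low oil counts of 0, 5.4 and 5.9 and 1.1, 2.2 and 7.1. Espl1 had 25.5, 21.9 and 13.9 counts with CCl4 + EVNorm beside 92.3, 90.6 and 73.1 with CCl4. The proliferation marker Mki67 had 222, 217 and 251 counts with oil, 2291, 2327 and 1913 with CCl4 and 422, 337 and 309 with CCl4 + EVNorm, above oil in all 3 mice, and was unresolved at 0.62 (-0.03 to 1.27, adjusted p = 0.069). It was called with only the groups compared, with library medians centred, under TMM and with DESeq2. Against untreated mice it was called higher (adjusted p = 0.0075).

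DNA replication and repair genes stood in like manner. Of 41 in the table, 11 were higher than oil, 1 was lower (2 with only the groups compared), 6 were within 2-fold and 23 were unresolved, with a median of 0.62 beside 1.69 with CCl4. The count of 11 fell to 6 without CCl4 + EVNorm replicate 1 and to 7 without replicate 2, and rose to 18 with only the groups compared and 20 under TMM. Rrm2, the ribonucleotide reductase subunit that supplies deoxynucleotides, had 68.6, 70.6 and 79.6 counts with oil, 329, 189.6 and 203 with CCl4 and 83.1, 55.7 and 51.5 with CCl4 + EVNorm. It was back at oil, with -0.23 (-0.83 to 0.38) from oil and -1.89 from CCl4 (adjusted p = 0.0012). Subunits of the Mcm helicase, which unwinds DNA at the fork, differed. Mcm5 was back at oil (-0.14, -0.68 to 0.40) and Mcm6 was still induced, with 65.5, 58.7 and 48.7 counts with oil and 216, 158 and 189 with CCl4 + EVNorm (1.69, adjusted p = 0.00059). Mcm10, the gene that was lower, had 3153, 3306 and 3446 counts with oil and 1023, 788 and 969 with CCl4 + EVNorm (-1.84, adjusted p = 0.00055).

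The 33 genes back at the oil level thus held 12 from the mitosis and replication lists. The rule that chose these 33 asks for a CCl4 mean far from oil and CCl4 + EVNorm values near it. The direction of their differences from CCl4 is thus largely fixed by the choice, and the calls are given as a description. Of the 26 induced genes among them 20 were lower than with CCl4 at adjusted p under 0.05. The other 6 were not called against CCl4 (Ulbp1, Clec7a, Zdhhc2, Mylk3, H2afx and Tcf21). Under 1 or more alternatives Clec7a, Zdhhc2, Mylk3 and H2afx gained that call and Kif23, Psat1, Pttg1, Aldh1b1, Anxa2 and Ska2 lost it. Others were Anxa2, a membrane-binding annexin (0.14, -0.36 to 0.64), Ptgr1, a prostaglandin reductase (-0.31, -0.73 to 0.12), and Brca1 of DNA repair (0.14, -0.44 to 0.72). The 7 suppressed ones were Pde6h, Gm379, Cyp7b1, Ifi47, mt-Tp, Car7 and Dsg1c. Of these only Ifi47, an interferon-inducible GTPase, was also higher than with CCl4, with 1082, 1223 and 1202 counts with oil, 558, 631 and 466 with CCl4 and 847, 1203 and 1043 with CCl4 + EVNorm (0.90 from CCl4, adjusted p = 0.044). Ifi47 lost this call with the replicate block (adjusted p = 0.0588), without a mean-variance trend (adjusted p = 0.0853) or with a robust one (adjusted p = 0.0502), and without any of 5 of the 6 libraries. Dsg1c, Gm379 and Car7 gained it under 1 or more alternatives. The call of Psat1 against CCl4 was lost with the replicate block (adjusted p = 0.0707), with a pseudocount of 0.5, with library medians centred and without any of the 6 libraries. Psat1 lay just inside the 2-fold limit, with an upper bound of 0.99. The tubulin gene Tubb6 met the rule at 0.48 from oil, though its interval of 0.01 to 0.95 lay wholly above oil (limma adjusted p = 0.053). It was called higher than oil under several alternatives, among them a robust trend, only the groups compared, library medians centred, TMM and DESeq2. A margin of 1.5-fold left 1 induced and no suppressed gene.

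Past oil lay 5 genes. Cyp2b10, the cytochrome that the receptor CAR induces, had 471, 238 and 208 counts with oil, 555, 417 and 1339 with CCl4 and 156, 85.4 and 113 with CCl4 + EVNorm. CCl4 + EVNorm values were below all others, -1.31 from oil (adjusted p = 0.0075) and -2.55 from CCl4 (adjusted p = 0.0013), and both calls held under every alternative. Cyp2c55 followed, at -1.40 from oil (adjusted p = 0.01), with 81.3, 47.8 and 78.4 counts with oil and 40.3, 24.3 and 15.5 with CCl4 + EVNorm, and lost its call without CCl4 + EVNorm replicate 3 (-1.08). Papss2, which makes the sulfate donor for sulfotransferases, was -0.40 (adjusted p = 0.0047) and lost its call under TMM (-0.16). The histone gene Hist1h2bj (-0.89, adjusted p = 0.03) lost it under TMM and without any of 4 libraries. Gm10319, the only 1 above oil after suppression by CCl4 (0.41, adjusted p = 0.044), lost it without a mean-variance trend, with the replicate block, without any of 5 libraries and with the mean of oil replicates 2 and 3.

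Some genes lay further from oil with CCl4 + EVNorm than with CCl4. Among those still apart from oil 23 suppressed and 4 induced genes were called against CCl4 in the direction away from oil, and Hspa1b, Hspa8, Dnajb1, Hsph1, Stip1 and Chordc1 of the chaperones and Cyp2a5 and Cyp2c38 of the cytochromes were among the 23. Rab11fip4, which binds the recycling GTPase Rab11, was the largest of the 4, with 29.6, 70.6 and 63.0 counts with oil, 57.2, 186 and 139 with CCl4 and 359.5, 287 and 372 with CCl4 + EVNorm. Its CCl4 + EVNorm values lay above all others, 2.70 from oil (adjusted p = 0.00016) and 1.55 from CCl4 (adjusted p = 0.035). This call against CCl4 was lost without a mean-variance trend and without any of 5 of the 6 libraries, with values of 1.06 to 1.70. Over the same alternatives Cyp2a5 kept its call against CCl4. In the direction of oil, 158 induced and 14 suppressed genes were called against CCl4, of which 49 and 5 were still apart from oil. The CCl4 libraries took part in choosing the genes, which favours calls in this direction.

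Large rises also remained in single genes of other kinds. Lcn2, lipocalin 2 of the acute phase and of injured epithelium, had 92.9, 262 and 380.1 counts with oil, 1698, 7198 and 694 with CCl4 and 1004, 11221 and 27589 with CCl4 + EVNorm. All injured mice were above oil, but CCl4 + EVNorm mice differed from each other by more than the group differed from CCl4, and the difference from oil was 5.00 with a standard error of 1.14 (adjusted p = 0.0015). Gldn, gliomedin, and Scube1, a secreted protein, were also high, at 4.73 and 3.98, from low oil counts, as in Scube1 with 1.1, 2.2 and 2.4 with oil and 42.0, 42.3 and 47.4 with CCl4 + EVNorm. Among 8 fetal and injury genes of hepatocytes 6 were higher. Afp, alpha-fetoprotein, was not, with 11.6, 10.9 and 3.6 counts with oil, 107, 93.7 and 175 with CCl4, 8.2, 15.7 and 15.5 with CCl4 + EVNorm and a wide interval (-0.43 to 1.68), while the growth-regulating noncoding RNA H19 was 2.05 (adjusted p = 0.0037).

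At the other end, Adgrv1, a large adhesion receptor (chromosome 13, 81095068 to 81633154), had 4257, 4360.2 and 4293 counts with oil, 231, 239 and 229.9 with CCl4 and 405, 259 and 120.1 with CCl4 + EVNorm. Both injured groups stood far below oil, with -4.20 for CCl4 + EVNorm (0.30, adjusted p = 5.3e-07). Irx1, an Iroquois transcription factor, had no read in any CCl4 + EVNorm mouse. From its oil mean of 14.4, and with a floor of 3 reads over the group, it was at least 17.8-fold lower than oil.

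Of the transcription factors induced by CCl4 13 of 15 were still induced, and of the induced p53 targets 8 of 14. Over all induced genes of the table the share was 77.9%. Of 23 liver transcription factors and nuclear receptors 13 were higher and 8 lower (5 under TMM). Prox1, of hepatocyte identity, had 1666, 1786 and 1594 counts with oil and 5840.3, 5572 and 4836 with CCl4 + EVNorm, groups well apart, at 1.68 (adjusted p = 0.00035). The pioneer factor Foxa2 was lower, at -1.28 (adjusted p = 0.0018), as was Pparg, the fat storage receptor, at -2.47 (adjusted p = 0.00016). Nfe2l2, Nrf2 of the antioxidant response, was within 2-fold of oil (0.21, -0.11 to 0.54) and lower than with CCl4 (adjusted p = 0.029). The call against CCl4 was lost with the replicate block (adjusted p = 0.0511), without a mean-variance trend, with library medians centred and without any of the 6 libraries, and under TMM (0.42) and without oil replicate 1 (0.43) it was called higher than oil. Of 15 p53 targets 8 were higher (13 under TMM) and 1, Gadd45g, was lower at -1.57 (adjusted p = 0.04). Gadd45g lost its call without a mean-variance trend or with a robust one, with edgeR at either scaling, with DESeq2, with the mean of oil replicates 2 and 3 and without any of 5 of the 6 libraries. Phlda3, an Akt inhibitor, was at 2.42 (adjusted p = 0.00015). Cdkn1a, p21, was unresolved at 0.94 (0.01 to 1.87) and was called with only the groups compared, with library medians centred, under TMM and with DESeq2. Mdm2, the p53 ligase, was within 2-fold at 0.11 (-0.13 to 0.35) and called under TMM (0.34).

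Smaller families were mixed. Of 23 solute carriers 7 were higher and 10 lower, of 16 interferon genes 5 and 4, of 15 actin cytoskeleton genes 10 and 4, of 12 integrins, annexins and S100 proteins 6 and 3, of 10 lysosomal genes 3 and 5, and of 4 antigen presentation genes 1 and 3. Under TMM 0 interferon, 2 actin cytoskeleton and 2 lysosomal genes were lower and 5 lysosomal genes higher. The 4 lower interferon genes became 2 without oil replicate 1 or CCl4 + EVNorm replicate 2 or 3, and the 3 higher lysosomal genes became 1 without oil replicate 1 or CCl4 + EVNorm replicate 3. The higher antigen presentation gene lost its call without oil replicate 2 or 3 or CCl4 + EVNorm replicate 3 and with the mean of oil replicates 2 and 3. Cyp4 and higher cytochromes had 3 of 11 higher and 6 lower (3 under TMM), and the fatty acid hydroxylases Cyp4a14 and Cyp4a10 were 2.66 and 2.00 (adjusted p = 0.034 and 0.046). Both calls were lost, and the 3 became 1, with a pseudocount of 5, with edgeR at the file's scaling (2.37 and 1.77) or under TMM, with DESeq2 (2.44 and 1.80), with the mean of oil replicates 2 and 3 (2.14 and 1.65) and without oil replicate 2 or 3 or CCl4 + EVNorm replicate 1 or 2. Cyp4a10 also lost its call without a mean-variance trend or with a robust one and without CCl4 + EVNorm replicate 3. Circadian clock genes were in the table in 3 cases, 1 higher and 1 lower. The higher one lost its call without oil replicate 1 or 2 or CCl4 + EVNorm replicate 1 or 3 and with the mean of oil replicates 2 and 3, and the lower one under TMM and without oil replicate 1.

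Untreated littermates were in neither group of the comparison that chose the genes. Against them CCl4 + EVNorm was higher for 1228 genes (35%) and lower for 1550 (44.1%), 79.1% in all. Genes called in the same direction against oil and untreated numbered 2589 and in opposite directions 6. The family medians against untreated were -0.83 for heat shock, -1.16 for oxidative phosphorylation, -1.49 for Cyp1 to Cyp3, 1.09 for collagens and 0.97 for mitosis. Oil itself differed from untreated for 32 genes, 25 higher and 7 lower, and for these the choice of reference matters most. Foxq1, a forkhead factor, was an example: it had 1506, 1019 and 944 counts with oil and 448, 546 and 280.3 with CCl4 + EVNorm, -1.46 from oil, but was 1.43 from untreated (adjusted p = 0.0033), whose mean was 156. Rpl35a, Col1a1, Hspa1b and Oat kept their direction against untreated, at -1.32, 2.13, -3.17 and -4.19, all called.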

How the data were processed

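By the study's account, livers of 15 mice, 3 in each of 5 groups, were profiled by RNA sequencing of whole tissue. The deposited signal values are read counts that the authors divided by size factors, after alignment with STAR to GRCm38.p3 and counting with featureCounts, per the labels and the study's methods. The table was limited by the authors to genes of their CCl4 against oil comparison, and its fold changes and p-values were not used here. Whole reads were recovered from the values (at least 99.7% of values in every library were whole within 0.05). Differences were fitted with limma 3.58.1 (R 4.3.3) on log2(normalized count + 1) over all 15 libraries with a mean-variance trend, and p-values were adjusted by Benjamini-Hochberg over all genes of the table, with a threshold of 0.05. With 3 against 3 mice an exact permutation test of a single gene cannot go below 0.1, so the fit across genes was used. The code was tested on simulated data.

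Groups came from the sample titles. Genes were named by a rule: the 10 largest rises and falls from oil among called protein-coding genes with a mean count of at least 10 whose groups did not overlap, the 10 genes back at oil with the largest change from CCl4, up to 10 past oil, the 10 furthest from oil beyond CCl4, up to 3 still apart and 2 back in each list, and the genes of the study's own expression plots. Families by symbol and some other genes, such as Apoa1 and Psme4, were chosen after their values were seen. Some of the genes that the rule names are not reported here. Members and lists were chosen with earlier results of these data known. Coordinates are from GENCODE M21 (GRCm38), which held all but 1 of the identifiers (3510), and promoters from RefSeq.

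Alternatives were pseudocounts of 0.5 and 5, only genes averaging 10 or more, limma without a trend or with a robust one, a fit on the compared groups alone, a block on the replicate number, centring on library medians, edgeR 4.0.16 and DESeq2 1.42.0 on the recovered reads, each library left out in turn, and the mean of oil replicates 2 and 3. Deviations from group means of same-numbered CCl4 and CCl4 + EVNorm libraries were weakly correlated (0.23, 0.175 and 0.169). Those of oil and CCl4 + EVNorm were lower (0.084, 0.017 and 0.053), and untreated replicate 1 with CCl4 + EVNorm replicate 2, which share no number, reached 0.13. The labels do not say what the numbers mark. The main fit therefore held no pairing, and the block was an alternative.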

Additional observations from a re-analysis of the deposited data

Results flagged for a closer look

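For 25 of the named genes limma's interaction term, the change with EVNorm under CCl4 minus that under oil, had an adjusted p under 0.05. Over all genes this term was called for 69, of which 67 were negative and 2 positive. The term sets the oil, oil + EVNorm, CCl4 and CCl4 + EVNorm groups against each other, and it shares the oil, CCl4 and CCl4 + EVNorm libraries with the comparisons above. The rule that named the genes used the change from CCl4 to CCl4 + EVNorm, so that negative values among them are in part fixed by the choice and are given as a description. The values are differences between both changes on the log2 scale.

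Most of these genes act in cell division. Cyclin B1 (Ccnb1) had a value of -4.66 (adjusted p = 0.0075), with 75.3, 25.4 and 25.6 counts in oil + EVNorm mice beside 12.7, 25 and 13.1 in oil mice, so that 1 mouse given vesicles without CCl4 lay far above the other 2. Leaders among the rest were Kif2c (-4.75), Plk1 (-4.31), Depdc1a (-3.88), Espl1 (-3.78), Aurkb (-3.70), Cdc20 (-3.67), Ccnb2 (-3.21) and Ccna2 (-3.07). Smaller values were seen for Cdca3 (-2.96), Foxm1 (-2.92), Mki67 (-2.79), Top2a (-2.71), Cdk1 (-2.21), Rrm2 (-2.03), Pttg1 (-1.90), Brca1 (-1.78), Tubb6 (-1.63), Mad2l1 (-1.45) and Smc2 (-1.34).

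Outside cell division the term was called for Afp (-3.44), Cyp2a5 (-2.34), Serpinb8 (-1.84), Ptgr1 (-1.35) and Papss2 (-0.79). Cyp2a5, which lay further from oil than with CCl4 alone, had 4894, 1437 and 1195 counts in oil + EVNorm mice, beside 2243, 1531 and 1668 in oil mice, so that 1 mouse lay above all oil mice and the other 2 below them (adjusted p of the term 0.048).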

How the results depend on the processing

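No called value changed sign, but the balance of calls turned under TMM, with edgeR calling 1502 genes higher and 1211 lower than oil, and 1410 and 1234 against untreated. Of the counts that answer a comparison, 496 values under alternatives stayed within 1.5 times the reported count and 26 did not. Of single genes and smaller counts 9667 kept their side of the threshold or their size, 316 lost a call, 129 gained one and 135 moved.

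The number of genes back at the oil level depended most on the rule. From 26 induced and 7 suppressed it went to 1 and 0 with a margin of 1.5-fold, by construction, and to 50 induced with a pseudocount of 5. Suppressed genes back numbered 11 with only the groups compared and with library medians centred, and 3 with the mean of oil replicates 2 and 3. Leaving out 1 library gave 19 to 30 induced and 3 to 8 suppressed, the lowest without oil replicate 3, and 4 without oil replicate 2 or CCl4 + EVNorm replicate 2. The edgeR fits gave no interval and so no such count.

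Against CCl4 the 18 higher genes became 42 with only the groups compared, 28 with library medians centred and 40 with DESeq2. On the recovered reads edgeR's quasi-likelihood test with the file's size factors called 1338 genes higher and 1616 lower than oil, and DESeq2 1354 and 1634. Leaving out 1 library gave 7 to 14 higher and 86 to 137 lower genes in place of 18 and 181, with the largest losses among lower genes without CCl4 replicate 1 (99) or 2 (109) or CCl4 + EVNorm replicate 2 (115) or 3 (86). Mitosis genes above oil numbered 31 to 44 in place of 47, the lowest without CCl4 + EVNorm replicate 1. Replication genes above oil numbered 6 to 9 in place of 11, the lowest without CCl4 + EVNorm replicates 1 (6) and 2 (7), and 18 with only the groups compared and 20 under TMM. The cause of these shifts was not tested beyond the fewer libraries.

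With the replicate number as a block 1303 genes were higher and 1577 lower than oil, 18 and 158 than CCl4, and 1224 and 1545 than untreated, and 25 induced and 7 suppressed genes were back at oil. Among the named genes the block ended the calls against oil of Gm10319, Cdc20 and Eda2r and called Col27a1 (-0.84), and against CCl4 it ended those of Gm16731, Espl1, Plk1, Psat1, Ifi47, Col3a1, Ltbp1, Chordc1 and Nfe2l2 and made those of Gadd45g, Herpud1, Inmt and Dsg1c. It changed no other call of a named gene in these comparisons. The adjustment over the number of genes the authors tested was planned and not run, because their comparison columns were not used.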
